A study of Mus musculus with 12 samples.

Results

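Ucma, Lrtm2 and Kirrel2 were described as 3 genes of the 41388 counted in each library. They were chosen by their measured levels, each being lower in every isolated astrocyte library of Bmal1 knockout mice (aKO) than in every wild-type (WT) one. All 3 passed the filter on low counts, which left 18950 genes for the astrocyte comparison and 20637 for the comparisons that used all libraries. The values that chose them were the CPM (a gene's reads scaled to the library's total count) in the astrocytes. Those values are therefore given as a description, with no test.

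RNA was sequenced from the brains of 8 mice with the strain Bmal fl/fl; ALDH1L1-CreERT2 on a C57BL\6 background. Bmal1, listed under its older official symbol Arntl, encodes a transcription factor at the core of the circadian clock. The aKO mice were Cre+ and carried a tamoxifen-inducible Cre driven by Aldh1l1, so deletion was directed at cells that use this astrocyte gene. The WT mice were Cre-, and therefore carried the floxed gene but not the CreERT2 allele. All animals, controls included, received 2 mg of tamoxifen by mouth on each of 5 days at 2 months of age, and their brains were collected at 7 months. Magnetic beads against ACSA-2, an astrocyte surface antigen, separated astrocytes from the remaining cells, termed flowthrough. Astrocyte libraries came from WT animals 201, 202 and 265 and from aKO animals 203, 205, 208, 221 and 222. Flowthrough was sequenced for WT 201 and 202 and for aKO 203 and 205, which makes 4 animals with both fractions. Flowthrough titles end in an unexplained letter b, and whatever it marks cannot be told apart from the fraction. The astrocyte library of animal 202 is titled WT, but its genotype field names a knockout. It was kept as WT, as in its title and in the sample numbers of the series' design.

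The 3 genes encode extracellular or cell-surface proteins of different families. Ucma is a small secreted protein first known from cartilage, rich in gamma-carboxyglutamate (Gla) residues that a vitamin K-dependent enzyme makes and that bind calcium. It is known for holding back the calcification of matrix. Lrtm2 is a single-pass membrane protein with leucine-rich repeats, a module that in related brain proteins binds partners across cell contacts. Kirrel2 is an adhesion molecule of the immunoglobulin superfamily, related to nephrin of the kidney filter and known in the brain for sorting olfactory axons. In bulk libraries, fewer cells that express a gene and less of its RNA per cell cannot be told apart.

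Sequences just before the annotated starts are shown because the deleted gene encodes a factor that binds DNA, whose preferred site is the E-box CACGTG. Each is printed 5′ to 3′ on the gene's strand, from RefSeq on GRCm38.p6, with every CANNTG match in capitals. The windows searched held 250 bases before each start. Stretches that the deposited annotation counts as exon are not printed, which leaves 75 bases for Kirrel2 and 117 for the first of the 2 Lrtm2 starts.
Ucma, chr2:4975872-4976121, plus strand: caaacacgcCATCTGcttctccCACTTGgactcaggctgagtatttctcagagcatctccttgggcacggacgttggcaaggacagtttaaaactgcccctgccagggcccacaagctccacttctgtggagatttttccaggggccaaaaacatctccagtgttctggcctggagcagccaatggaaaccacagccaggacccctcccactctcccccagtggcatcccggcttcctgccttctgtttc
Lrtm2, first start, chr6:119330900-119331016, minus strand: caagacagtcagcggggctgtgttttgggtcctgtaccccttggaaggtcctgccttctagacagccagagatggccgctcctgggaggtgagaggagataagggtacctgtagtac
Lrtm2, second start, chr6:119329205-119329454, minus strand: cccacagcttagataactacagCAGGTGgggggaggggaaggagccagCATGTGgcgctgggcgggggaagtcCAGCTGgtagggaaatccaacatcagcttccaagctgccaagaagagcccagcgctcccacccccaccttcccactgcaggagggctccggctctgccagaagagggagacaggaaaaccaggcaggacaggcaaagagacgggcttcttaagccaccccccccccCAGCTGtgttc
Kirrel2, chr7:30457691-30457765, minus strand: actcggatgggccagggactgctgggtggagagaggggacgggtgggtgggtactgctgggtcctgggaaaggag
None of these 4 windows held CACGTG, which was found on either strand in 6.02% of 32851 mouse promoter windows of the same length. The related letters CACGTT were present in 3.85% of all windows, and AGGTCA, a core site of nuclear receptors, in 14.0%. Neither was found before any of the 3 genes. The broader pattern CANNTG, which includes CACGTG and was added after the data were seen, had 2 matches for Ucma. It had 2 and 4 matches before the first and second Lrtm2 start and 1 for Kirrel2, against a median of 1 and a share of 66.2% over all windows. The matches before the first Lrtm2 start and before Kirrel2 lie in the unprinted bases. The CCAAT box, also added later, was present in 33.8% of all windows and once before Ucma, where its first base lies 71 bases before the start. The windows' GC content was 56.4% for Ucma and Kirrel2 and 63.2% and 62.4% for the Lrtm2 starts, against a median of 52.4%. A match describes letters only, and a missing match says nothing of binding elsewhere.

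All coordinates are GRCm38. Ucma (ENSMUSG00000026668) occupies chromosome 2 from 4976122 to 4985748 on the plus strand, with 884 exonic bases. Its neighbour Mcm10, which encodes a DNA replication factor, ends 3966 bp beyond it on the opposite strand. Lrtm2 (ENSMUSG00000055003) occupies chromosome 6 from 119315133 to 119330766 on the minus strand, with 4102 exonic bases. It lies inside Cacna2d4, a calcium channel subunit gene read from the other strand, without sharing an exonic base. How strand was treated in counting is not given in the sources used here. Reads from unspliced RNA of Cacna2d4 that fall in Lrtm2 exons could not be told apart from Lrtm2 reads if strand was ignored. Kirrel2 (ENSMUSG00000036915) occupies chromosome 7 from 30447534 to 30457690 on the minus strand, with 3939 exonic bases. Nphs1, which encodes nephrin, starts 625 bp away on the opposite strand and is read away from it.

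**Figure D1:**
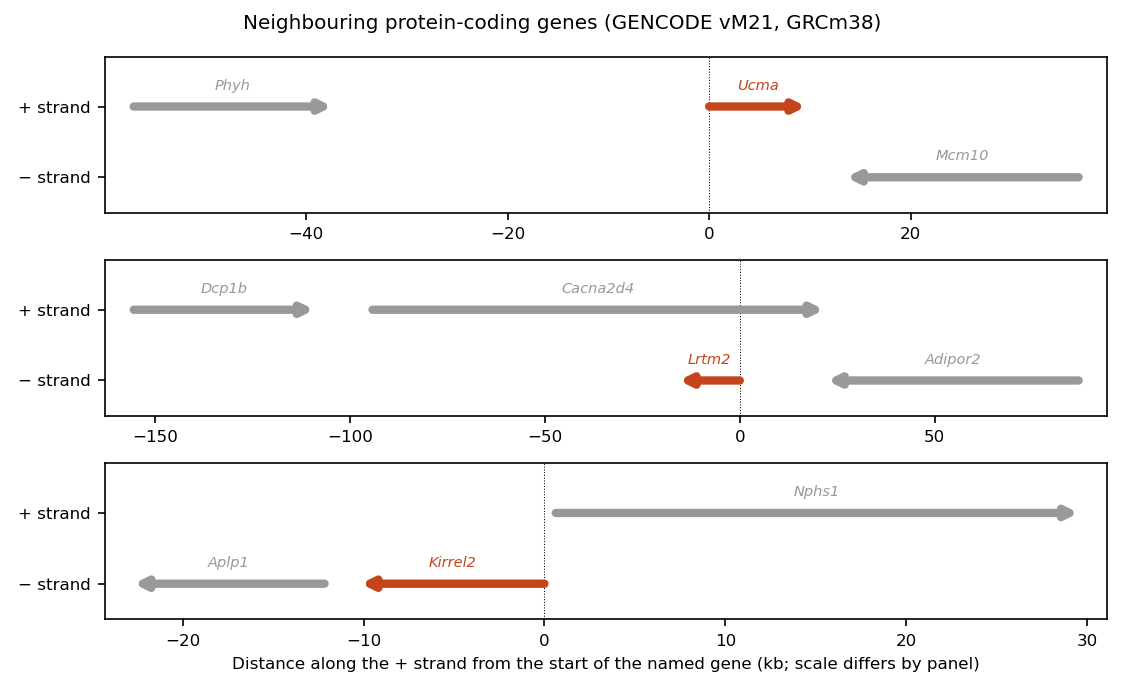
Arrows show the annotated bodies of Ucma, Lrtm2 and Kirrel2 (red) and their nearest protein-coding neighbours (grey) by strand, with distance in kb along the plus strand from each gene's start. Lrtm2 lies within Cacna2d4 on the other strand, and Kirrel2 and Nphs1 are divergent with 625 bp between them.

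The 8 astrocyte libraries held between 21816637 and 62655238 counted reads, and the 4 flowthrough libraries between 33019572 and 53868165. Mitochondrially encoded genes took 11.1% to 36.5% of the counts in astrocytes and 4.81% to 12.9% in flowthrough. On the first principal component of the astrocytes, which held 34.2% of the variance, WT 265 and aKO 222 stood apart from the other libraries. Xist was counted 2044 times in aKO 221 and 972 times in aKO 222, and at most 46 times in the other astrocyte libraries. Xist marks female cells, and the labels give no sex. The summed CPM of 12 astrocyte markers was 3632 to 16290 in WT and 5495 to 13825 in aKO astrocytes, with no marker at 0 in any library. It was 556 to 5779 in WT and 327 to 1774 in aKO flowthrough. Arntl, counted over the whole gene, stood at 3.50, 6.80 and 2.13 CPM in WT astrocytes and between 5.05 and 25.0 CPM in aKO. These counts span exons outside the floxed part, so they check neither the deletion nor the labels.

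In WT astrocytes Ucma stood at 30.9 CPM in animal 201, 21.5 in 202 and 58.4 in 265. In aKO astrocytes it stood at 12.7 CPM in animal 203, 7.74 in 205, 15.5 in 208, 5.73 in 221 and 8.22 in 222. The groups did not overlap, as the rule required, and the lowest WT value was 1.39 times the highest aKO value. The WT mean was 36.9 ± 19.1 CPM (SD, n = 3) and the aKO mean 9.97 ± 3.98 CPM (SD, n = 5), a ratio of 3.71. Every aKO library held at least 189 Ucma reads, so counting error was small beside the spread between animals. The fitted log2 fold change was -2.04 (SE 0.43). The highest WT library, 265, was one of those that stood apart. Without it the estimate was -1.39.

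Lrtm2 reached 26.3 CPM in WT astrocytes of animal 201, 21.2 in 202 and 11.2 in 265. In the knockout it reached 10.4 CPM in animal 203, 6.45 in 205, 3.27 in 208, 6.57 in 221 and 1.83 in 222. Here the gap was narrow, since WT 265 exceeded aKO 203 by a factor of 1.08. The means were 19.6 ± 7.67 CPM (SD, n = 3) and 5.70 ± 3.31 CPM (SD, n = 5), a ratio of 3.43. The fitted log2 fold change was -1.94 (SE 0.42). With the astrocyte library of animal 202 counted as a knockout, as its genotype field has it, the Lrtm2 estimate was -1.11 and the groups overlapped. Ucma and Kirrel2 then kept estimates of -1.97 each.

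In WT astrocytes Kirrel2 held 6.82 CPM in animal 201, 3.33 in 202 and 6.55 in 265. The aKO astrocytes held 0.688 CPM in animal 203, 2.75 in 205, 1.03 in 208, 2.13 in 221 and 0.696 in 222, or 15 to 90 reads a library. The lowest WT library was 1.21 times the highest aKO library. The means were 5.56 ± 1.94 CPM (SD, n = 3) and 1.46 ± 0.93 CPM (SD, n = 5), a ratio of 3.81, and the fitted log2 fold change was -2.12 (SE 0.47). Without both libraries that stood apart, WT 265 and aKO 222, the estimates were -1.41 for Ucma, -1.98 for Lrtm2 and -1.75 for Kirrel2. Without aKO 221 and 222, the libraries rich in Xist, they were -1.85, -1.75 and -2.19 in the same order.

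Per length, Ucma stood further above Lrtm2 and Kirrel2 than in CPM. In deposited RPKM (reads scaled to the library's total and to exon length), the WT astrocyte level was 41.8 ± 21.6 for Ucma, 4.77 ± 1.87 for Lrtm2 and 1.41 ± 0.49 for Kirrel2 (SD, n = 3 each). The aKO levels were 11.3 ± 4.51, 1.39 ± 0.81 and 0.371 ± 0.237 RPKM (SD, n = 5 each). The order of the genes was therefore the same in both genotypes.

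Of the 18950 genes tested in astrocytes, 65, or 0.343%, had every aKO library under every WT library. All 3 genes are among them by choice. Ranked by fitted change within the 65, Kirrel2 was 6th, Ucma 9th and Lrtm2 12th, and Rpe65, which encodes an isomerase of retinoid metabolism, was 1st. In all, 25 genes had a change at least as low as that of Lrtm2, and 12 of those had groups that did not overlap. At the edge of the rule, among genes at least as abundant as Kirrel2, Cideb lay just inside with 6.51 CPM in its lowest WT and 6.46 CPM in its highest aKO library. Tmem14a lay just outside, with 48.5 and 48.6 CPM. The separation of Ucma, Lrtm2 and Kirrel2 was present after scaling by TMM or DESeq2 size factors, and in CPM without mitochondrial genes and Ttr. These scalings reuse the astrocyte counts that chose the genes, and the share of all genes separated under them was not computed. Across these scalings the ratio of the lowest WT to the highest aKO value was 1.44 to 1.61 for Ucma, 1.25 to 1.29 for Lrtm2 and 1.46 to 2.06 for Kirrel2.

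Genes beside the 3 loci were not called in astrocytes. A gene was called at an adjusted p under 0.05 (edgeR, quasi-likelihood, Benjamini-Hochberg), and 0.0264% of all tested genes were, 0.00528% lower in aKO and 0.0211% higher. An unadjusted p under 0.05 was found for 1.58%. Cacna2d4, which surrounds Lrtm2, stood at 5.43, 6.40 and 2.13 CPM in WT astrocytes 201, 202 and 265 and at 2.81 to 7.57 CPM in the knockout (median 5.87). These groups overlapped, with a log2 fold change of 0.13 (SE 0.48) against -1.94 for Lrtm2. Nphs1, the divergent neighbour of Kirrel2, had an estimate of -1.50 (SE 0.98) from low and overlapping values of 0.320 to 3.37 CPM in WT and 0.0574 to 2.00 CPM in aKO. The estimates of the other neighbours were 0.15 (SE 0.42) for Aplp1, -0.27 (SE 0.43) for Phyh, 1.27 (SE 0.71) for Mcm10, 0.46 (SE 0.36) for Dcp1b and 0.63 (SE 0.34) for Adipor2. The adjusted p was at least 0.9997 for every one of these 7 neighbours.

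**Figure D2:**
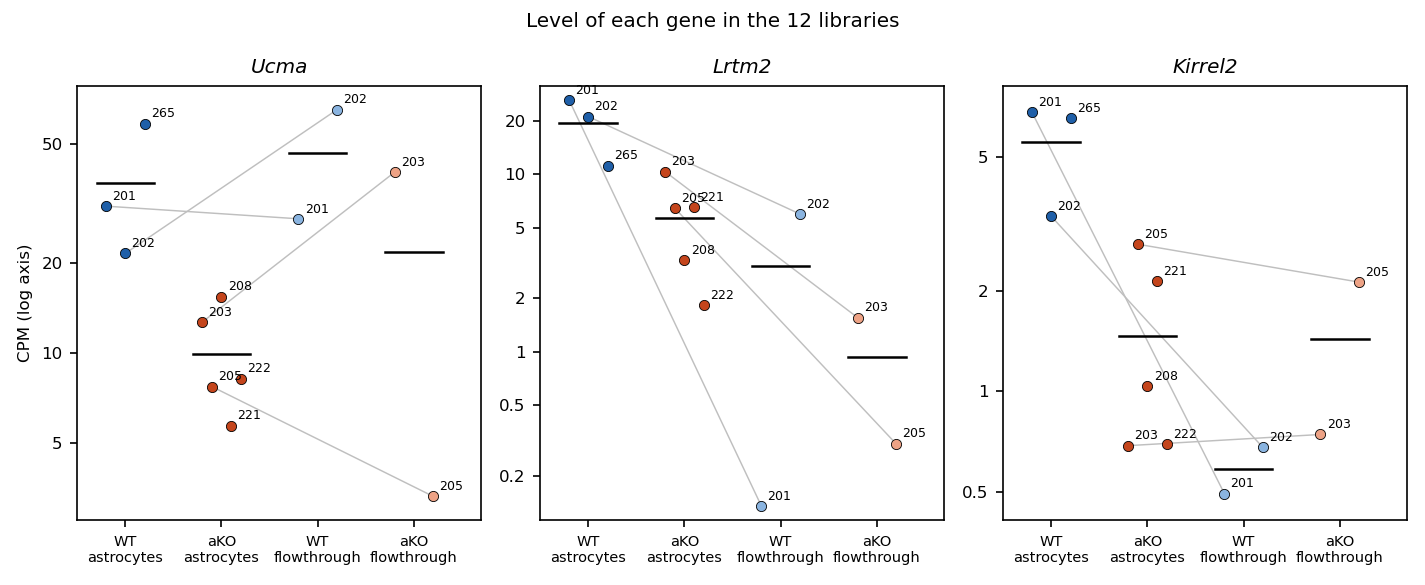
Each point is the CPM (log axis) of Ucma, Lrtm2 or Kirrel2 in 1 library, labelled by animal; black lines are group means and grey lines join the 2 fractions of 1 animal. Ucma spans 3.33 to 64.9 CPM across flowthrough, Lrtm2 falls from astrocytes to flowthrough along all 4 grey lines, and Kirrel2 does so steeply along the 2 WT lines.

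The flowthrough libraries were not used to choose the genes, although they came from 4 of the same animals. None of the 3 genes was called between aKO and WT flowthrough, and 0% of all 20637 genes were called there (817, or 3.96%, had an unadjusted p under 0.05, and DESeq2 called 1). Ucma stood at 28.1 CPM in WT 201 and 64.9 in WT 202, and at 40.1 in aKO 203 and 3.33 in aKO 205. These groups overlapped, and the libraries of each genotype lay far apart. Over all genes, 20.3% had both aKO libraries under both WT libraries, and none of the 3 genes did. The log2 fold change was -0.85 (SE 0.81, 95% interval -2.56 to 0.86, adjusted p 0.809 by edgeR's quasi-likelihood test).

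Lrtm2 was rare in flowthrough, with 0.135 CPM (6 reads) in WT 201, 5.99 CPM in WT 202, 1.56 CPM in aKO 203 and 0.303 CPM (10 reads) in aKO 205. The aKO values fell between the WT values. The estimate was -1.36 (SE 1.05, interval -3.58 to 0.85, adjusted p 0.804, edgeR). It rested on WT 202, without which it was 2.92. The same library held 5779 CPM of astrocyte markers, against 556 CPM in WT 201, 1774 in aKO 203 and 327 in aKO 205. The part of these markers in the result was not tested.

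Kirrel2 went the other way, at 0.494 and 0.680 CPM in WT flowthrough 201 and 202 and 0.743 and 2.12 CPM in aKO 203 and 205 (22 to 70 reads). Both aKO libraries were above both WT libraries, which held for 12.4% of all tested genes. The log2 fold change was 1.61 (SE 0.74, interval 0.041 to 3.18), with an unadjusted p of 0.0449 and an adjusted p of 0.804 by edgeR's quasi-likelihood test. Without aKO 205 it was 0.46. The fitted changes of Kirrel2 were thus -2.12 in astrocytes and 1.61 in flowthrough. The difference between them was not tested, because the first chose the gene.

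**Figure D3:**
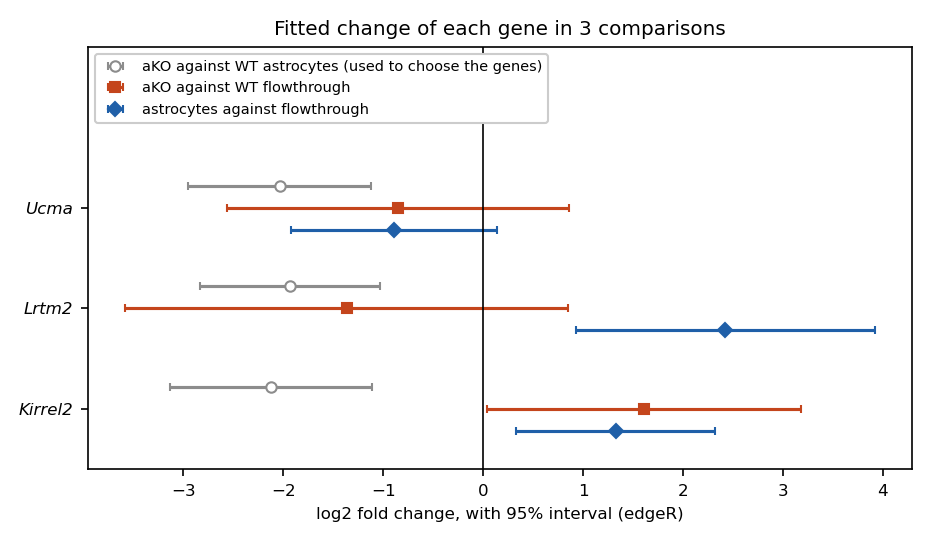
Points are fitted log2 fold changes with 95% intervals for Ucma, Lrtm2 and Kirrel2 in 3 comparisons; open grey circles mark the comparison that chose the genes. The intervals of Ucma and Lrtm2 between flowthrough genotypes include 0, and the interval of Lrtm2 between fractions, from 0.93 to 3.92, does not. The Kirrel2 intervals, 0.041 to 3.18 between flowthrough genotypes and 0.33 to 2.32 between fractions, also exclude 0. Their adjusted p was 0.804 and 0.0632 by edgeR's quasi-likelihood test.

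Which fraction held the RNA of each gene was tested across all 12 libraries, with both genotypes weighted equally. The astrocyte libraries are those of the rule. The contrast is another one, but it is not independent of the choice, because the astrocyte groups differ in size. How far the choice shifted these estimates and p-values was not tested. Lrtm2 was higher in astrocytes than in flowthrough, Kirrel2 did not pass the threshold, and the estimate for Ucma lay below 0 without passing. Over all genes 17% were called, with 8.52% higher in astrocytes and 8.52% lower, and 32% had an unadjusted p under 0.05. For 6.34% of genes every astrocyte library was above every flowthrough library, which held for none of Ucma, Lrtm2 and Kirrel2.

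For Lrtm2, the log2 fold change was 2.42 (SE 0.71, interval 0.93 to 3.92, adjusted p 0.0267, edgeR), a 5.35-fold higher level in astrocytes. Within animals the astrocyte library was higher in 4 of 4, which held for 31.4% of all genes. The ratios were 3.54 in animal 202, 6.64 in 203, 21.3 in 205 and 195 in 201, where flowthrough held 6 reads. When animal was added as a block to the 8 paired libraries, the log2 fold change was 3.42 (SE 0.72, adjusted p 0.00602). The call was lost without aKO flowthrough 205 (2.09, adjusted p 0.122), without WT astrocytes 202 (2.34, adjusted p 0.0510) and with that library counted as aKO (2.68, adjusted p 0.0567). The astrocyte library was also higher for Cacna2d4, at 1.78 (SE 0.52, adjusted p 0.0258, edgeR).

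Kirrel2 had a fraction difference of 1.33 (SE 0.47, interval 0.33 to 2.32, adjusted p 0.0632, edgeR), and DESeq2 gave an adjusted p of 0.0249. In the WT animals the astrocyte level was 13.8 times the flowthrough level in 201 and 4.91 times in 202. In the aKO animals the ratios were 0.926 in 203 and 1.30 in 205. Both WT ratios were above both aKO ratios, which follows in part from the choice of the gene. The share of all genes with such a split was not computed. The block gave 1.25 (adjusted p 0.218).

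Ucma had a fraction difference of -0.89 (SE 0.49, interval -1.92 to 0.14, adjusted p 0.220, edgeR). The astrocyte level was 1.10 times the flowthrough level in animal 201, 0.332 times in 202, 0.316 times in 203 and 2.32 times in 205. The direction differed between animals of the same genotype. Without aKO flowthrough 203 the estimate turned to 0.37.

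**Figure D4:**
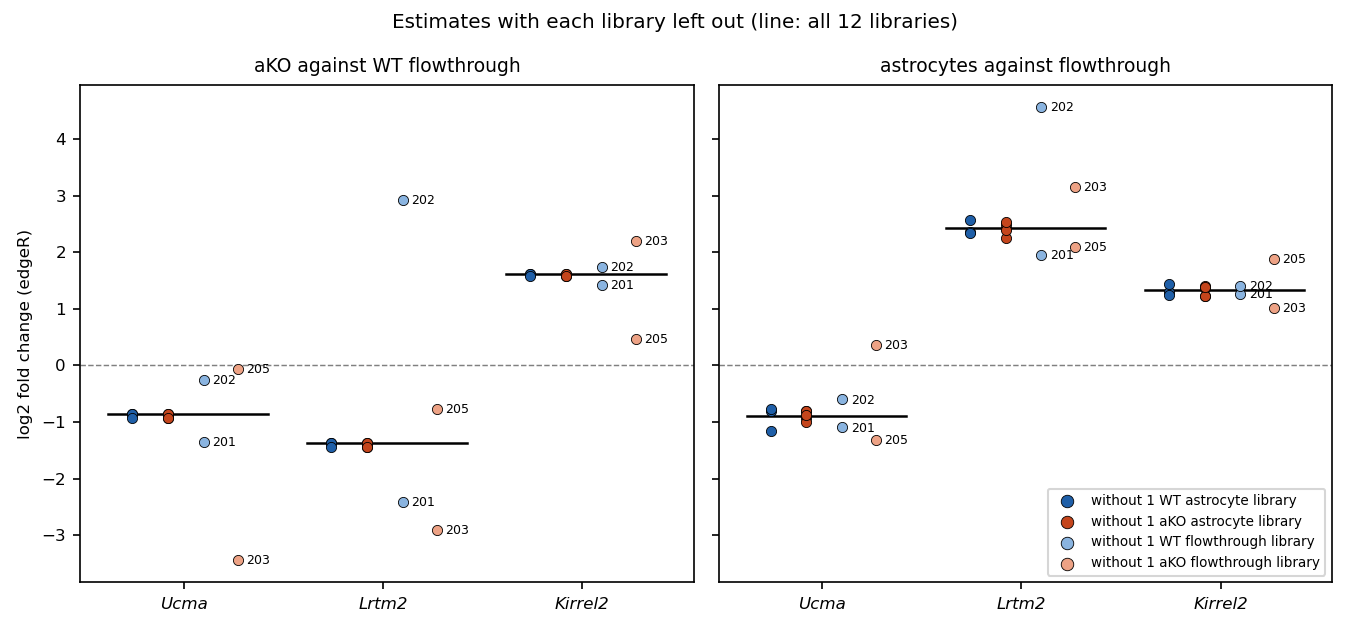
Points are edgeR log2 fold changes for Ucma, Lrtm2 and Kirrel2 after leaving out each library in turn, coloured by the group of that library, with a line at the estimate from all 12. Lrtm2 between flowthrough genotypes runs from -2.90 to 2.92, and between fractions from 1.95 to 4.56.

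By group mean, Ucma was ordered as WT flowthrough (46.5 ± 26.0 CPM, SD, n = 2), WT astrocytes (36.9), aKO flowthrough (21.7 ± 26.0, SD, n = 2) and aKO astrocytes (9.97). Each pair of neighbours in that order overlapped. Lrtm2 was ordered as WT astrocytes (19.6), aKO astrocytes (5.70), WT flowthrough (3.06 ± 4.14, SD, n = 2) and aKO flowthrough (0.931 ± 0.888, SD, n = 2). Of the pairs of neighbours in that order, only WT and aKO astrocytes, separated by the rule, did not overlap. Kirrel2 was ordered as WT astrocytes (5.56), aKO astrocytes (1.46), aKO flowthrough (1.43 ± 0.97, SD, n = 2) and WT flowthrough (0.587 ± 0.131, SD, n = 2). Its aKO astrocyte and aKO flowthrough levels overlapped.

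Markers of other cell types were read beside the genes. In the astrocyte libraries the summed CPM of 8 ependymal markers was 609 to 2610 in WT and 562 to 1421 in aKO. All 8 ependymal estimates lay below 0 (median -0.84, against 0.02 over all genes), and none was called. The 8 choroid plexus estimates also lay below 0, with sums of 12202 to 171298 CPM in WT and 17276 to 106323 CPM in aKO. All 10 oligodendrocyte estimates lay above 0, with sums of 3482 to 12455 CPM and 3620 to 21771 CPM. No ependymal marker was at 0 in any library. Estimates lay above 0 for 9 of 9 endothelial (median 0.41), 7 of 8 mural (0.43), 9 of 11 neuronal (0.13), 7 of 10 microglial (0.12), 3 of 5 oligodendrocyte precursor (0.15), 4 of 7 tanycyte (0.36) and 8 of 9 pineal and photoreceptor markers (1.27). They lay below 0 for 6 of 7 leukocyte (median -0.73), 7 of 8 cerebellar neuron (-0.12), 5 of 8 fibroblast (-0.13) and 9 of 12 astrocyte markers (-0.13). No marker in these lists was called, and their part in the results was not tested.

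Ucma was also divided by the ependymal sum, a ratio formed after the data were seen that in astrocytes reuses the values of the rule. Per 1000 CPM of ependymal markers, WT astrocytes held 20.5, 35.3 and 22.4 CPM of Ucma in animals 201, 202 and 265. The aKO astrocytes held 15.9, 13.8, 13.4, 7.76 and 5.79 CPM in animals 203, 205, 208, 221 and 222. In flowthrough the ratio was 13.7 in WT 201 and 24.2 in WT 202, and 10.7 in aKO 203 and 3.07 in aKO 205. The genotypes did not overlap in this ratio in either fraction. On the same scale 0.0264% of all genes had every aKO astrocyte library under every WT one, and 17.6% had both aKO flowthrough libraries under both WT ones. Against the markers of astrocytes, oligodendrocytes, neurons or choroid plexus, Ucma overlapped between astrocyte genotypes.

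**Figure D5:**
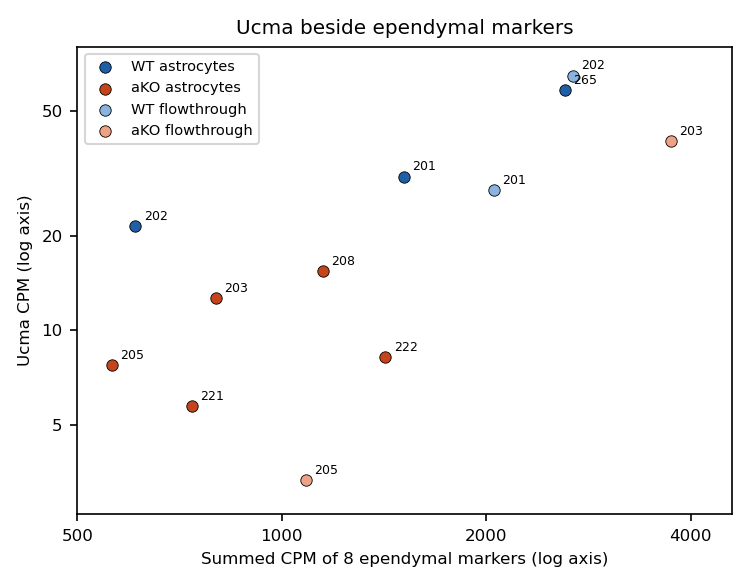
Each point is 1 library, with the summed CPM of 8 ependymal markers (x) and the CPM of Ucma (y) on log axes. Similar ependymal sums in both genotypes occur among the astrocyte libraries, where the aKO values of Ucma are lower by the rule. In flowthrough, aKO 203 pairs the highest ependymal sum with 40.1 CPM of Ucma, above the 28.1 CPM of WT 201. The astrocyte values of Ucma are those that chose the gene, and the part of ependymal cells was not tested.

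Further ratios to marker sums were likewise formed after the data were seen, and in astrocytes they reuse the values of the rule. Per 1000 CPM of astrocyte markers, Lrtm2 held 1.30 to 3.08 CPM in WT astrocytes and 0.332 to 0.749 CPM in aKO. These groups did not overlap, which held for 0.111% of all genes. Lrtm2 was also separate against oligodendrocyte and neuron markers, for which the share of all genes was not computed. Against ependymal markers it overlapped, at 4.29 to 34.8 CPM in WT and 1.29 to 13.0 CPM in aKO, and it overlapped against choroid plexus markers. Kirrel2 overlapped against the astrocyte markers, with 0.205 to 1.80 CPM in WT and 0.0497 to 0.294 CPM in aKO. Of the 5 marker lists it was separate against oligodendrocyte markers only, again with no share computed over all genes. The astrocyte-marker ratio of Ucma was 1.32 to 16.1 CPM in WT and 0.456 to 2.26 CPM in aKO.

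The 3 genes did not vary alike across the 12 libraries. On log2 CPM, Pearson's r was 0.20 between Ucma and Lrtm2, 0.0012 between Ucma and Kirrel2 and 0.51 between Lrtm2 and Kirrel2. These values describe libraries that share animals and fractions. The 8 astrocyte libraries among them chose the genes, so genes with the same astrocyte split are favoured as matches. Only genes with an official symbol were ranked, without predicted genes and numbered clones. The 5 of these most like Ucma were Krt19, an epithelial keratin (r = 0.95), Slc35g3, Wdr38, Inca1 and Zfp667 (0.90 to 0.93). For Lrtm2 they were Pou3f2, a POU-domain transcription factor (0.95), Ip6k3, an inositol phosphate kinase, Nat8f2, Slc13a5, a citrate transporter, and Folh1, a glutamate carboxypeptidase (0.93 to 0.95). For Kirrel2 they were Lfng, a modifier of Notch (0.83), the clock output factor Tef (0.83), Klf15, Bcl2 and Kif2a (0.79 to 0.80). Among the genes ranked, the closest match of Kirrel2 was thus looser than the 5th match of either other gene. Every match named had an estimate below 0 between astrocyte genotypes. Only Krt19 of them is among the 65 genes separated there.

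Relatives of the 3 genes were counted in lists chosen with earlier results known. In astrocytes no member of these lists was called between genotypes. For Ucma, 15 of 20 genes for Gla proteins and the vitamin K cycle were tested, with 8 estimates above and 7 below 0 (median 0.10, against 0.02 over all genes). Mgp, the best known Gla inhibitor of calcification, had a mean of 218 ± 134 CPM in WT astrocytes (SD, n = 3) and of 239 ± 212 CPM in aKO astrocytes (SD, n = 5). The smallest p-values belonged to the osteocalcin-family gene Bglap3 (-2.28, SE 1.18), Prrg1 (0.81, SE 0.43) and Prrg4 (-0.62, SE 0.41). Bglap3 was rare and its groups overlapped, at 0.0402 to 2.94 CPM in WT and 0 to 0.431 CPM in aKO astrocytes. Of 17 cartilage matrix genes, 14 were tested, 5 above and 9 below 0 (median -0.07). They were led by Comp (1.4, SE 0.78), Col11a1 (0.80, SE 0.52) and Prelp (-0.53, SE 0.40).

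For Lrtm2, 35 of 38 genes for leucine-rich repeat membrane proteins were tested, with 19 above and 16 below 0 (median 0.03; 18 above 0 with DESeq2 size factors). They were led by Lingo4 (1.23, SE 0.72), Lrrtm4 (1.11, SE 0.75) and Flrt1 (-0.56, SE 0.38). Its closest paralog, Lrtm1, did not pass the count filter in astrocytes. The 4 calcium channel subunit genes of the Cacna2d family had 3 estimates above 0 and 1 below (median 0.15), the last being Cacna2d2 (-0.46, SE 0.43). For Kirrel2, 13 of 14 genes for nephrin, the Kirrel family and their partners at the kidney's slit diaphragm were tested, 8 above and 5 below 0 (median 0.09; 7 above 0 with DESeq2 size factors). The paralog Kirrel3 had means of 12.1 ± 3.17 CPM in WT astrocytes (SD, n = 3) and 23.2 ± 11.5 CPM in aKO astrocytes (SD, n = 5), an estimate of 0.75 (SE 0.37) opposite in sign to that of Kirrel2. The adjusted p of every listed gene was at least 0.9997 by edgeR's quasi-likelihood test.

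In flowthrough no listed gene was called between genotypes either. The medians were 0.38 for the Gla list (11 of 18 above 0), 0.05 for cartilage matrix (8 of 16), -0.04 for the leucine-rich repeat list (16 of 36), 0.47 for Cacna2d genes (3 of 4) and 0.40 for the nephrin list (10 of 14), against 0.07 over all genes. The smallest p-values belonged to Lrrn1 (1.65, SE 0.54) and Lrrn2 (1.4, SE 0.47), to Col11a2 (2.40, SE 0.88) and to Vkorc1, the vitamin K epoxide reductase (-1.28, SE 0.57). Each of these had an adjusted p of 0.804 by edgeR.

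Lrtm2's relatives were also compared between fractions. Of 36 leucine-rich repeat genes tested, 33 had estimates above 0 and 16 were called higher (15 with DESeq2 size factors), where 8.52% of all genes were. The median was 1.36, against 0.07 over all genes. Among the called genes the highest was Slitrk2, at 4.19 (SE 0.45, adjusted p 9.62e-06, edgeR), followed by Slitrk4 at 2.79 (SE 0.66) and Lrfn5 at 2.55 (SE 0.66). Lrtm2's own estimate was 2.42, and the called genes next below it were Flrt1 (2.36, SE 0.53), Slitrk5 (2.31, SE 0.46), Slitrk1 (2.29, SE 0.51) and Lrrc4c (2.27, SE 0.57). Also called were Lrrn1 (2.13), Lrrtm3 (1.99), Lingo2 (1.97), Lingo1 and Elfn2 (1.71 each), Lrrc4 (1.63), Lrrn3 (1.34), Amigo2 (1.07) and Lrrtm2 (1.0). Many of these genes are known from neurons. Neuronal markers also had 11 of 11 estimates above 0 between fractions, 5 of them called, and their part in the list's values was not tested.

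The counts of the other lists between fractions stand beside the same shares over all genes, 8.52% higher and 8.52% lower, and the same median of 0.07. Of the 4 Cacna2d genes (median 1.06), Cacna2d1 (1.53, SE 0.32) and Cacna2d4 were called higher in astrocytes. Kirrel2's relatives had 11 of 14 estimates above 0 (9 with DESeq2 size factors; median 0.37). Kirrel3 (2.5, SE 0.50), the scaffold gene Magi2 (1.68, SE 0.29), the kinase gene Fyn (1.18, SE 0.35) and the channel gene Trpc6 (1.90, SE 0.55) were called higher. The 18 Gla and vitamin K genes had 9 estimates on each side of 0 (median -0.06). Prrg1 (2.20, SE 0.40) and Prrg3 (1.45, SE 0.40) were called higher in astrocytes. The coagulation genes Pros1 (-1.43, SE 0.35), F9 (-2.15, SE 0.64) and F10 (-3.20, SE 0.83) were called lower. The cartilage list had 12 of 16 above 0 (median 1.03) and 4 called higher, namely Hapln1 (3.93, SE 0.79), Col11a2 (2.52, SE 0.57), Col9a2 (1.74, SE 0.55) and Col11a1 (1.67, SE 0.46). Ucma, at -0.89, lay below that list's median.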

How the data were processed

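RNA from 12 libraries of 8 mice was counted per Ensembl gene. The deposited files give each gene's read count, and the authors' CPM and RPKM, in columns named so per the file headers. The submitters' processing notes list GRCm38, featureCounts 1.4.6-p5, Subread, STAR 2.5.1a and bcl2fastq. How strand and multiply matching reads were handled, and which annotation release was counted, is not given in the sources used here. All tests used the deposited counts, CPM was recomputed from them and equalled the deposited CPM, and RPKM was used as deposited. GENCODE vM21 names matched 40254 of 41388 identifiers. The other 1134 held 0.0782% to 0.116% of a library's counts and stayed in the tests.

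The genes, lists and comparisons were chosen with earlier results of these data known. The test was that of edgeR 4.0.16 under R 4.3.3 (quasi-likelihood, robust, TMM, filterByExpr with a minimum count of 10 and a minimum total of 15), two-sided, with Benjamini-Hochberg adjustment over all genes and a threshold of 0.05. Astrocyte genotypes were compared in 8 libraries, and the other comparisons in 1 fit of 4 groups to all 12, so the flowthrough groups of 2 share the spread of the others. Each SE is the estimate over the square root of its F statistic. Log2 CPM for correlations used a prior count of 2. The code was tested on simulated data. Named genes are the 3 genes, Arntl, overlapping and nearest neighbours, listed genes past the threshold or otherwise up to 3 with the smallest p, and the 5 genes with the highest correlation. Predicted genes, numbered clones, microRNA and mitochondrially encoded genes and unmatched identifiers were not ranked by correlation or at the edge of the rule. Rpe65, Cideb, Tmem14a, Mgp and the paralogs were named after their values were seen. Alternatives were DESeq2 1.42.0, its size factors, no filter, astrocyte library 202 as aKO, 1 fit of all libraries, each library left out and an animal block. Flowthrough library 202 stayed WT throughout.

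Title numbers mark the brain, so astrocytes and flowthrough of 1 number were taken as paired. Their deviations from group means correlated with r of 0.0823, 0.424, 0.166 and 0.404 in animals 201, 202, 203 and 205. Separate animals were the replicates within each group.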

Additional observations from a re-analysis of the deposited data

Results flagged for a closer look

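None of Ucma, Lrtm2 and Kirrel2 had a library that lay far from the rest of the 5 aKO astrocyte libraries, the only group large enough to check. Among the neighbours, Mcm10 and Nphs1 did. For Mcm10, beside Ucma, aKO 203 held 0.275 CPM and the other 4 held 1.06 to 1.17 CPM. The gap to the nearest of them was 0.876 of the group's range. For Nphs1, beside Kirrel2, aKO 222 held 2.00 CPM and the next library 0.611 CPM, a gap of 0.715 of the range. In the check of 11 genes, chance flags about 1 in 20 groups.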

How the results depend on the processing

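The astrocyte estimates of Ucma, Lrtm2 and Kirrel2 lay below 0 under 15 of 15 alternatives each. These alternatives reuse the libraries of the rule, so that sign follows in large part from the choice of the genes. Of them, 2 were chosen after seeing the data: leaving out aKO 222 with WT 265, and leaving out aKO 221 with 222. Lrtm2 moved to -1.11 with library 202 as aKO. The number of genes called between astrocyte genotypes was 5 (299 at an unadjusted p under 0.05). It was 8 without the count filter and 15 with DESeq2. With astrocyte library 202 as aKO it was 0 (803 unadjusted), and with all 12 libraries in 1 fit it was 1. Without aKO 222 and WT 265 it was 3, and without aKO 221 and 222 it was 7. With 1 library left out it ran from 0 (without WT 201, 401 unadjusted) to 5. Between flowthrough genotypes, 0 genes became 45 without the filter, 1 with DESeq2 and 0 to 1 with 1 library left out. With 1 library left out, Ucma there ran from -3.43 to -0.06, Lrtm2 from -2.90 to 2.92, reversed without WT 202, and Kirrel2 from 0.46 to 2.19. A lone flowthrough library was assumed to vary like the other groups. Between fractions, 3517 genes were called. The replicate block (animal) on 8 libraries gave 6167, against 3562 in those libraries without it, and leaving out 1 library gave 1691 (without WT flowthrough 201; 2136 without aKO flowthrough 205) to 4107. Lrtm2 passed in 16 of 20 alternatives and ran from 1.95 to 4.56 with 1 library left out. It missed the threshold in the 8 paired libraries with no animal term (2.80, adjusted p 0.0502, edgeR) and with 202 as aKO (2.68). Kirrel2 passed in 3 of 20, namely DESeq2 (1.28), without aKO astrocytes 222 (1.39) and without aKO flowthrough 205 (1.88), and ran from 1.02 to 1.88. Ucma passed in 0 of 20 and ran from -1.32 to 0.37, reversed without aKO flowthrough 203. Depth limits Lrtm2 in flowthrough, where 2 libraries held 6 and 10 reads. The causes were not tested.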
